A study of Rattus norvegicus with 6 samples.

Results

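The genes described here are 10 genes of the extracellular matrix and of liver fibrosis, taken by symbol: the small proteoglycan genes Dcn, Lum and Bgn, the collagen genes Col1a1 and Col3a1, and the remodelling genes Sparc, Spp1, Timp1, Mmp2 and Tgfb1. A probe was taken when its transcript identifier belonged to one of these symbols, and 9 of the 10 genes had 1 probe each, out of 9627 named genes on the array. No probe was assigned to Col1a1, which was not analysed here. RNA came from livers of Sprague Dawley rats, all male and all fed a 60% high-fat diet. For 9 weeks they had received by gavage either dark tea, made with a strain of Eurotium cristatum numbered 8730, or distilled water. Each group had 3 arrays, 1 for each sample, and both groups were on the high-fat diet. A group on normal diet is not part of the values used here, so the comparison asks how matrix gene expression differed with the tea under the high-fat diet, not what the diet itself did.

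The extracellular matrix of the liver is sparse and is laid down mainly by hepatic stellate cells and portal fibroblasts. On injury stellate cells turn into myofibroblasts under transforming growth factor beta and secrete fibrillar collagen, while metalloproteinases and their tissue inhibitors set how fast that collagen is removed. Small leucine-rich proteoglycans are secreted proteins that bind collagen fibrils and space them, and decorin and biglycan, the products of Dcn and Bgn, also bind transforming growth factor beta. In the GRCr8 assembly Lum is the next protein-coding gene after Dcn, followed by Kera and Epyc, 2 further members of the same family that had no named probe.

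Levels are log2 probe intensities from RNA of whole liver, in which fewer cells of a type and less RNA per cell cannot be told apart. The median probe had an intensity of 87.1 to 95.9 on the 6 arrays, and the 1 random-sequence control row, the available guide to background, lay between 5.05 and 5.40 on the log2 scale. Hepatocyte RNA was prominent, with Alb, the albumin gene, at 15.62 ± 0.05 with tea and 15.58 ± 0.17 in controls (SD, n = 3 each). Control replicate 1 stood apart. Its Pearson correlation across probes with the other arrays was 0.884 to 0.899, against 0.945 to 0.972 among the other 5, and it was the highest or lowest of the 6 arrays for 55.4% of all probes, against 21.2% to 35.6% for each other array. Values without it are given beside many of the differences and list medians, and a difference given without such a value may also change. In limma 1 of 26419 probes (0.00379%) passed an adjusted p of 0.05 with all 6 arrays, the clock output gene Dbp, and none of the 9 matrix genes did. Without control replicate 1, 6 probes (0.0227%) passed, again with none of the 9.

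Dcn had the largest difference among the 9 genes and was higher with tea. Its log2 level was 7.55, 7.45 and 8.45 in the tea arrays, against 6.88, 5.96 and 6.64 in the controls. Each tea array lay above each control, with a gap of 0.57 between the lowest tea array and the highest control, and tea replicate 3 was the highest of all. The means were 7.82 ± 0.55 with tea and 6.49 ± 0.48 in controls (SD, n = 3 each), a 2.51-fold difference or 1.33 ± 0.38 on the log2 scale (SE, limma 95% interval 0.48 to 2.17). After adjustment over all probes it did not pass (limma, adjusted p = 0.949). The unadjusted p of 0.00548 ranked 87th of 26419 probes, and an exact permutation test (two-sided, 10 possible splits) gave p = 0.1, which 3 against 3 arrays cannot go below. With an array left out the difference stayed between 1.01 and 1.52, and without control replicate 1 it was 1.52. Control replicate 2, the lowest array for Dcn, was within 2-fold of the random control row, which leaves the fold itself loosely determined.

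Bgn, which encodes the closest relative of decorin among the 3 proteoglycans, differed in the opposite direction. Its log2 level was 5.55, 6.05 and 5.25 in the tea arrays, against 6.10, 6.29 and 6.996 in the controls. The groups did not overlap, but the gap was 0.05, between tea replicate 2 and control replicate 1. The means were 5.62 ± 0.40 with tea and 6.46 ± 0.47 in controls (SD, n = 3 each), and the log2 difference was -0.84 ± 0.35 (SE, 95% interval -1.63 to -0.06). It did not pass the adjustment (limma, adjusted p = 0.949, unadjusted p = 0.0377). Of the 6 Bgn values, 4 were within 2-fold of the random control row. Without control replicate 1 the difference was -1.02, and without control replicate 3 it was -0.58.

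Lum encodes lumican, a keratan sulfate proteoglycan that also binds collagen. Its log2 level was 4.99, 4.93 and 4.95 in the tea arrays, against 5.55, 5.16 and 4.90 in the controls. In 4 of the 6 arrays this was under the random control row of the same array, and in no array was it 2-fold above that row. The log2 difference was -0.25 ± 0.30 (SE, 95% interval -0.91 to 0.42; limma, adjusted p = 0.950). Lum was thus not clearly above the random control row in either group, and its difference carries no size.

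**Figure D1:**
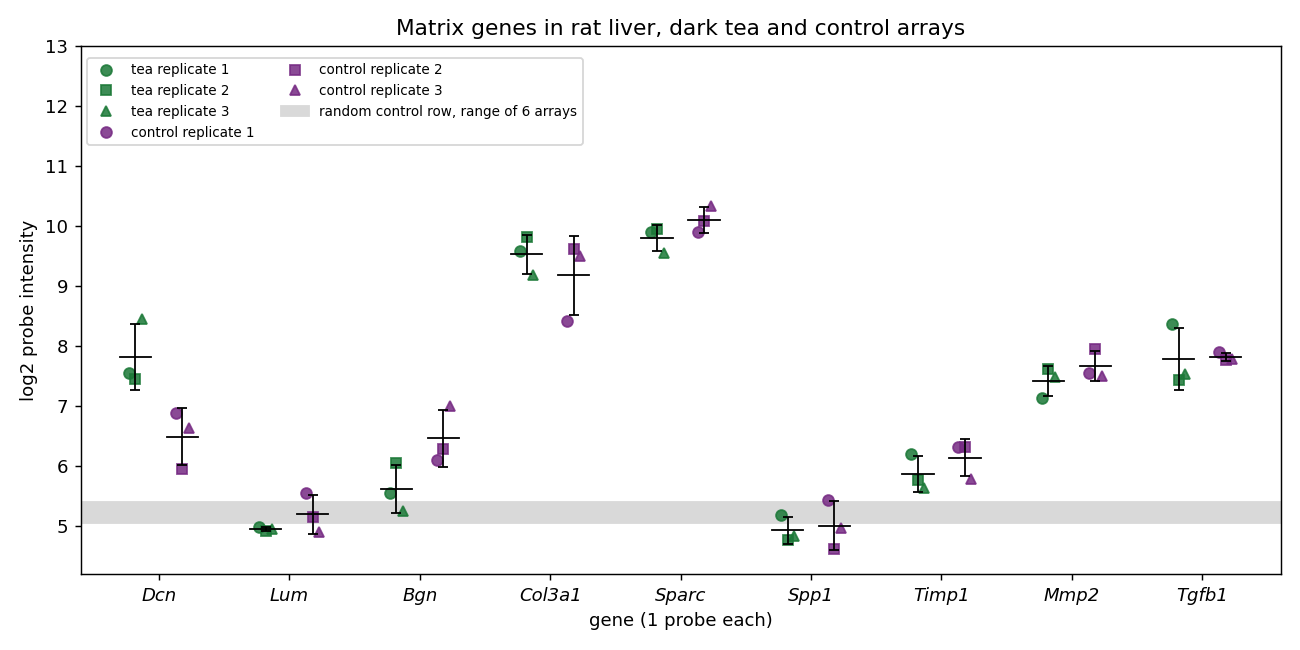
Log2 probe intensity (vertical axis) of the 9 measured genes, with tea arrays in green left of control arrays in purple, symbols for replicates, and bars for the mean and SD of 3 arrays. The grey band is the range of the random control row over the 6 arrays; Dcn lies higher with tea and Bgn lower, both without overlap, while Lum and Spp1 lie in or near the band.

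Col3a1 encodes the chain of type III collagen, a fibrillar collagen of the normal and the fibrotic liver. Its log2 level was 9.58, 9.82 and 9.18 in the tea arrays, against 8.42, 9.62 and 9.50 in the controls. The groups overlapped, and the low control mean came from control replicate 1. Tea minus control came to 0.35 ± 0.38 in log2 units (SE, 95% interval -0.50 to 1.20; limma, adjusted p = 0.949), and -0.03 without control replicate 1. Col1a2, which encodes the second chain of type I collagen and is the measured partner of Col1a1, differed by 0.22 ± 0.30 (SE; limma, adjusted p = 0.954). Its arrays were at 10.54, 10.76 and 10.29 with tea, against 10.47, 10.15 and 10.32 in controls, so the groups overlapped here too.

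Sparc encodes osteonectin, a matricellular protein that binds collagen. Its log2 level was 9.91, 9.95 and 9.55 in the tea arrays, against 9.91, 10.08 and 10.34 in the controls. The groups overlapped, with tea replicates 1 and 2 above control replicate 1. The difference was -0.30 ± 0.30 (SE, 95% interval -0.96 to 0.36; limma, adjusted p = 0.949). Spp1 encodes osteopontin, a secreted phosphoprotein that in liver is made by cholangiocytes and activated macrophages. Its level was 5.19, 4.77 and 4.84 in the tea arrays, against 5.44, 4.62 and 4.98 in the controls. All 6 values were within 2-fold of the random control row and 4 were under it, so Spp1 was not clearly above that row in either group, and the difference of -0.08 ± 0.32 (SE; limma, adjusted p = 0.979) carries no size. Without control replicate 1 that difference was 0.14.

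Mmp2 encodes gelatinase A, a metalloproteinase of stellate cells, and Timp1 an inhibitor of metalloproteinases. Mmp2 was at 7.13, 7.62 and 7.49 in the tea arrays, against 7.55, 7.96 and 7.51 in the controls. Timp1 was at 6.20, 5.77 and 5.64 in the tea arrays, against 6.32, 6.31 and 5.79 in the controls. Both genes had lower means with tea and overlapping groups. The log2 difference was -0.26 ± 0.30 for Mmp2 (SE, 95% interval -0.93 to 0.42; limma, adjusted p = 0.950). For Timp1 it was -0.27 ± 0.32 (SE, 95% interval -0.97 to 0.42; limma, adjusted p = 0.949). Both kept their direction with each array left out, but 4 of the 6 Timp1 values were within 2-fold of the random control row.

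Tgfb1 encodes the main fibrogenic cytokine of the liver. Its log2 level was 8.37, 7.44 and 7.54 in the tea arrays, against 7.90, 7.77 and 7.78 in the controls. The controls lay close together, with tea replicate 1 above all of them and the other 2 tea arrays below all of them. The mean difference was -0.03 ± 0.33 (SE, 95% interval -0.77 to 0.70; limma, adjusted p = 0.994), which covers a change of more than 1.5-fold in either direction. Omitting tea replicate 1 gave -0.33, omitting tea replicate 2 gave 0.14, and omitting control replicate 1 gave 0.0079.

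**Figure D2:**
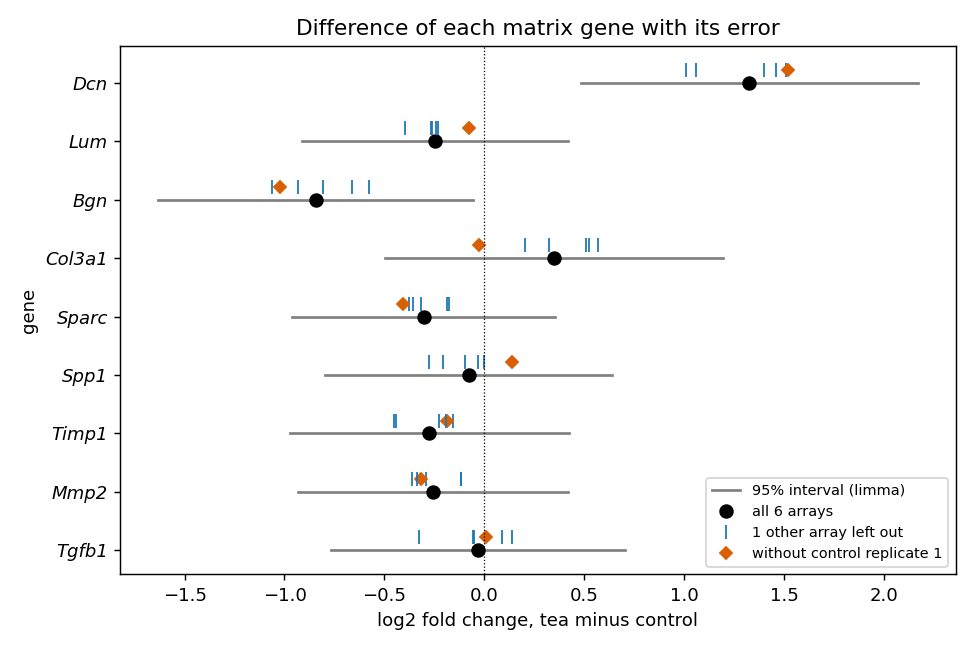
Log2 fold change, tea minus control, of each measured gene (horizontal axis), with all 6 arrays (black points), limma 95% intervals (grey lines), and the value with 1 array left out (marks above each line, control replicate 1 in orange). The intervals of Dcn and Bgn lie on opposite sides of 0 and those of the other 7 genes cover 0; Col3a1 moves to -0.03 without control replicate 1.

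Of the 9 genes, 2 were higher and 7 lower in mean with tea, where 50.3% of all probes were lower. Groups did not overlap for Dcn and Bgn, 2 of the 9, where this held for 10.4% of all probes, and the same 2 genes had an unadjusted p under 0.05, as did 4.23% of all probes. The median log2 difference over all 9 genes, and that over the 3 small proteoglycans, was the value of Lum itself, a gene at the random control row. With all 6 arrays each of these medians was -0.25, against -0.0022 over all probes. Without control replicate 1 each was -0.07, against 0.0065 over all probes. Over Col3a1 and the 5 remodelling genes the median was -0.17, or -0.11 without control replicate 1.

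The small proteoglycans were then set against the collagen and remodelling genes. For each array, the mean of Dcn, Lum and Bgn and that of the other 6 genes was taken after setting each gene to its own mean over the 6 arrays. The first minus the second was -0.19, 0.09 and 0.36 in the tea arrays, against 0.10, -0.41 and 0.04 in the controls. These values overlapped, and their means of 0.09 ± 0.27 with tea and -0.09 ± 0.28 in controls (SD, n = 3 each) differed by 0.18, less than the spread within either group, and by 0.017 to 0.32 with an array left out. That mean joins Dcn and Bgn, whose differences have opposite signs. With Dcn left out, the measure was -0.42, -0.03 and -0.23 in the tea arrays, against 0.28, 0.04 and 0.35 in the controls. These groups did not overlap and differed by -0.45, or by -0.54 to -0.35 with an array left out, and the measure then rests on Bgn and on Lum at the random control row. Within the proteoglycans, Dcn and Bgn differed in opposite directions. On the same scale Dcn minus Bgn was 0.89, 0.29 and 2.08 in the tea arrays, against -0.33, -1.44 and -1.48 in the controls. These values could not overlap, because Dcn was higher and Bgn lower with tea, each without overlap. The group means of this measure differed by 2.17, and by 1.67 to 2.57 with an array left out, which restates the differences of the single genes. The pair and the omission of Dcn were chosen after the values were seen, and both differences are descriptions.

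**Figure D3:**
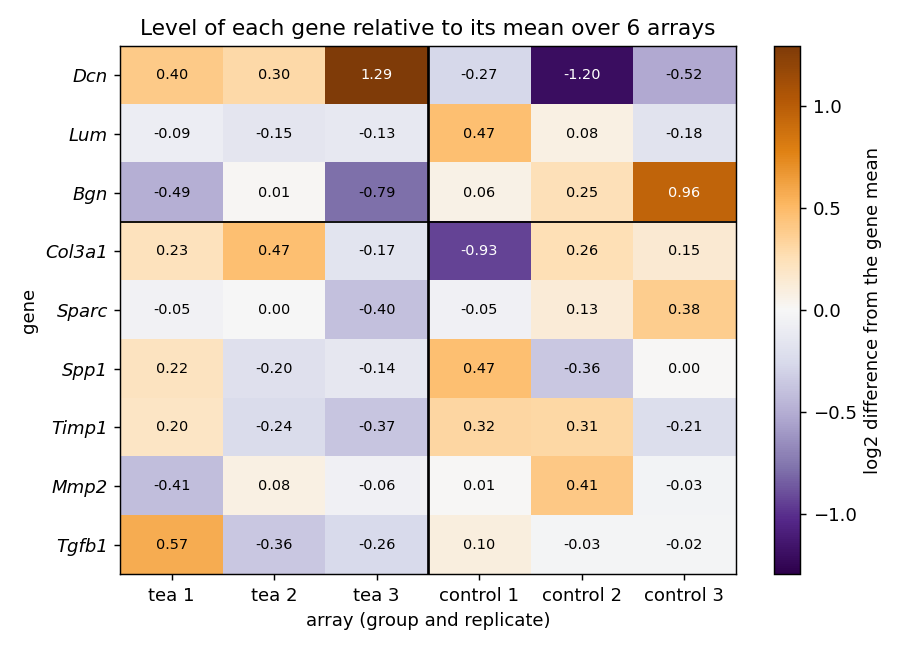
Log2 level of each measured gene (rows) in each array (columns, tea left of control) relative to the mean of that gene over the 6 arrays, with brown above and purple below the mean. Dcn is highest and Bgn lowest in tea replicate 3, and the low Col3a1 value stands in control replicate 1 alone.

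Other genes of the same pathways are given from 9 lists of matrix genes, which held 165 genes, 81 of them measured. None of the 81 passed over all probes in limma (smallest adjusted p = 0.949). At an unadjusted p under 0.05 1 of the 81 was higher, where 1.97% of all probes were, and 3 were lower, where 2.26% of all probes were. In all, 32 were higher and 49 lower in mean with tea. Groups did not overlap for 3 higher genes, 3.70%, where 4.87% of all probes did so, and for 9 lower genes, 11.1%, where 5.54% of all probes did so. The 9 lower genes included Fn1, Vtn and Plg, which encode plasma proteins made by hepatocytes and are described at the end. The median difference was -0.15, and -0.09 without control replicate 1. Control replicate 1 was the highest array for 24 and the lowest for 23 of the 81 genes. Of the 81 genes, 14 (17.3%) were within 2-fold of the random control row on every array, against 25.6% of all probes.

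Among the small leucine-rich proteoglycans 8 of 15 were measured, 4 higher and 4 lower, with a median of 0.02, or -0.04 without control replicate 1. Fmod, which encodes the collagen-binding fibromodulin, differed by 0.40 ± 0.33, and Chad, which encodes chondroadherin, by 0.59 ± 0.44 or 0.17 without control replicate 1 (SE; limma, adjusted p = 0.949 for both). Of the 6 Chad values 4 were within 2-fold of the random control row. Of 5 genes for building glycosaminoglycan chains, such as those on decorin and biglycan, 1 was higher and 4 were lower. Chst12, a chondroitin sulfotransferase, differed by -0.77 ± 0.36 (SE; limma, adjusted p = 0.949) with non-overlapping groups, or by -0.45 without control replicate 1. All 6 of its values were within 2-fold of the random control row. Chpf, a chondroitin polymerising factor, differed by -0.37 ± 0.35, also with 4 of 6 values that near.

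Of the fibrillar collagens 5 of 11 were measured, 3 higher and 2 lower, with a median of 0.19 (0.29 without control replicate 1). Col5a3 differed by 0.19 ± 0.40, or by 0.48 without control replicate 1. In the wider collagen list 1 of 22 was measured, Col4a4, at 0.45 ± 0.44, and among basement membrane glycoproteins 3 of 14, with Lama3, a laminin chain, at 0.44 ± 0.33 and Agrn, the agrin gene, at -0.16 ± 0.33. Of their 6 values, 5 for Col5a3, 5 for Col4a4 and 4 for Lama3 were within 2-fold of the random control row. The median of the 3 basement membrane genes was 0.09, or -0.10 without control replicate 1. Among 11 measured enzymes of collagen processing and cross-linking 5 were higher and 6 lower, with a median of -0.18, or -0.07 without control replicate 1. P3h1, the collagen prolyl 3-hydroxylase, was at 9.28, 8.88 and 9.21 in the tea arrays, against 8.49, 8.66 and 8.52 in the controls. Its groups did not overlap and its difference was 0.57 ± 0.29 (SE; limma, adjusted p = 0.949). Plod2, a lysyl hydroxylase that prepares collagen for cross-linking, differed by -1.12 ± 0.55. That value was -0.40 without control replicate 1, whose Plod2 level of 7.73 stood against 5.91 and 5.21 in the other controls, and the other 5 arrays were within 2-fold of the random control row.

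In the matricellular and elastic fibre list 11 of 14 measured genes had lower means with tea, with 3 higher and a median of -0.36, or 10 of 14 and -0.45 without control replicate 1. Fn1 and Vtn, which encode plasma proteins made by hepatocytes, were among the 11. Ccn3, a matricellular protein of the CCN family, was at 6.76, 7.04 and 6.999 in the tea arrays, against 7.88, 7.30 and 7.55 in the controls, a difference of -0.64 ± 0.30 with non-overlapping groups. Mfap4, a microfibril-associated protein, differed by -1.11 ± 0.46, and by -0.73 without control replicate 1, with 4 of 6 values within 2-fold of the random control row (SE; limma, adjusted p = 0.949 for both). Of 19 measured matrix proteases and inhibitors 13 were lower and 6 higher, with a median of -0.19, or -0.09 without control replicate 1. Adamts5, an aggrecanase that also cleaves other proteoglycans, was at 5.76, 5.11 and 5.43 in the tea arrays, against 5.91, 6.15 and 7.13 in the controls. Its difference was -0.96 ± 0.38, without overlap, and 4 of its 6 values were within 2-fold of the random control row. Mmp14, the membrane-bound activator of gelatinase A, differed by -0.85 ± 0.39, and by -0.49 without control replicate 1 (SE; limma, adjusted p = 0.949 for both proteases).

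Of 15 measured genes of transforming growth factor beta signalling 7 were higher and 8 lower in mean, and the median was -0.03, or -0.17 without control replicate 1. Furin, a protease that processes the precursor of the cytokine, was at 8.28, 8.10 and 8.22 in the tea arrays, against 8.77, 8.38 and 8.84 in the controls, a difference of -0.46 ± 0.29 without overlap. Smad7, the feedback inhibitor of the pathway, differed by -0.50 ± 0.33 with overlapping groups (SE; limma, adjusted p = 0.949 for both).

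**Figure D4:**
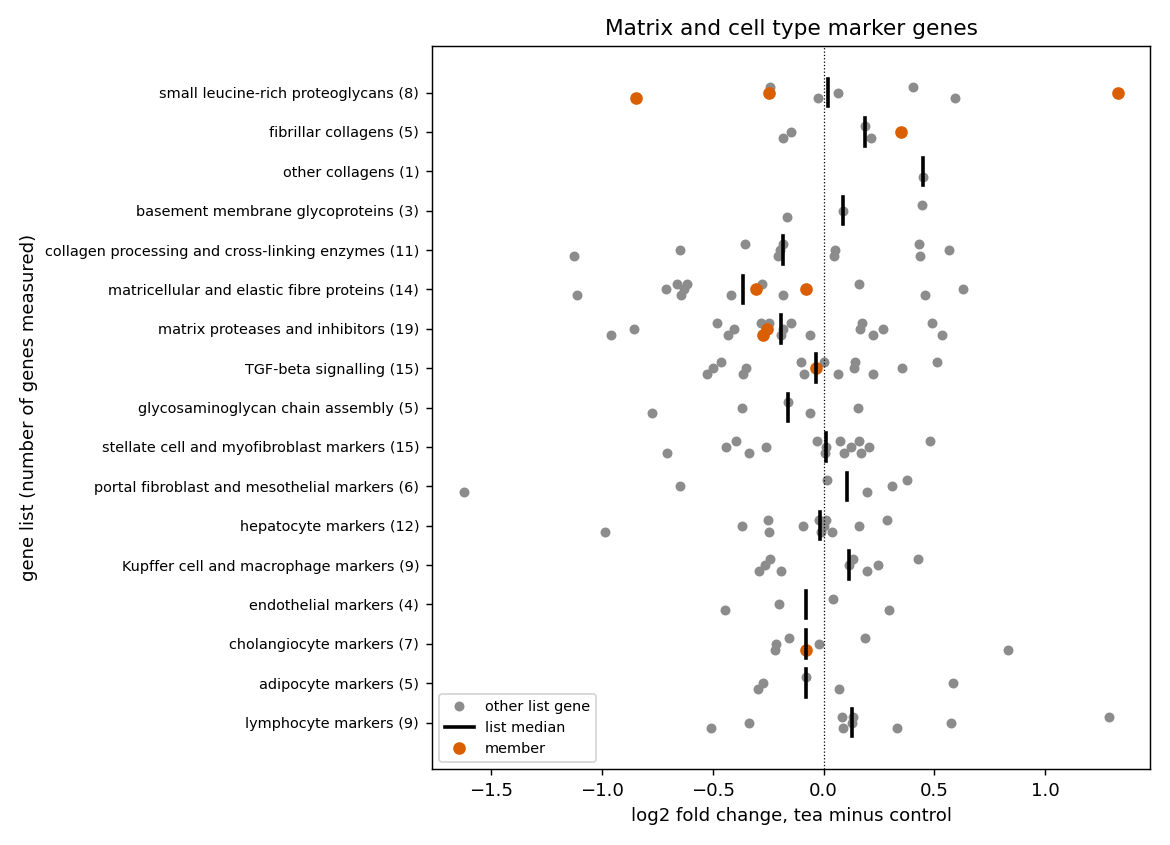
Log2 fold change, tea minus control, of each measured gene (points; the 9 genes of this report in orange) in 9 matrix lists and 8 cell type marker lists, with the list median as a black bar and the number measured in brackets. Dcn and Bgn are the outermost points of the small proteoglycan list, and the matricellular list has the lowest median of the matrix lists, -0.36.

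Markers of the cells that make matrix were set beside these values. Of 15 measured stellate cell and myofibroblast markers 9 were higher and 6 lower with tea, with a median of 0.012 and none past the test. Without control replicate 1 the median was -0.18. Their summed intensity ran from 7336 to 9957 in the tea arrays, against 7187 to 9055 in the controls. Cygb, which encodes the stellate cell globin, differed by -0.71 ± 0.42, or by -0.26 without control replicate 1, and 4 of its 6 values were under the random control row. Portal fibroblast and mesothelial markers were higher in 4 and lower in 2 of 6, with a median of 0.11. Control replicate 1 was the highest array for 5 of the 6 genes. Without it 5 genes were higher and 1 lower, with a median of 0.35. The brightest, Krt8, differed by 0.02 ± 0.30, but it is also a main keratin of hepatocytes and cholangiocytes and so does not mark these cells alone. The summed intensity of the other 5 was 307 to 385 in the tea arrays, against 227 to 1046 in the controls, the 1046 in control replicate 1. Gpm6a, a mesothelial marker, was at 5.43, 5.61 and 4.66 in the tea arrays, against 8.24, 5.83 and 6.49 in the controls. Its difference was -1.62 ± 0.56 (SE; limma, adjusted p = 0.949) and -0.92 without control replicate 1, and with 4 of its 6 values within 2-fold of the random control row it has no firm size. None of the marker lists of other cells had a gene past the test. Of their medians 3 changed sign without control replicate 1. That of Kupffer cells and macrophages was 0.12 with all arrays and -0.18 without it, that of cholangiocytes -0.08 and 0.06, and that of adipocytes -0.08 and 0.05. In the same order the medians were -0.01 and -0.14 for hepatocytes, -0.08 and -0.14 for endothelium, and 0.13 and 0.09 for lymphocytes, so no direction is read from these lists. The part of cell composition in the Dcn and Bgn differences was not tested.

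Over the 6 arrays, the named genes whose level followed Dcn most closely, of 9626 compared, were the olfactory receptor gene Or5af1c with a Pearson correlation of 0.979, the glycosyltransferase gene A3galt2 with 0.977 and Msmb, which encodes a secreted microseminoprotein, with 0.970. Without control replicate 1 these were 0.980, 0.996 and 0.995. They are the highest of many correlations over few arrays and are given as a description. Or5af1c, at 4.85 to 5.75, and Msmb, at 4.54 to 5.49, were within 2-fold of the random control row on every array. A3galt2 was at 6.75, 6.70 and 7.32 in the tea arrays, against 6.21, 5.97 and 6.35 in the controls. No other matrix gene was among the 3.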

How the data were processed

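Total RNA had been labelled with Cy3 for NimbleGen arrays, per the labels' protocols. The deposited values are linear probe intensities, 1 for each probe and array. The submitters' processing notes name RMA, and neither its version nor a background setting is given in the sources used here. Because RMA equalises the distributions of arrays, differences in total signal cannot be seen. Here log2 was taken with no further scaling, and 26419 probes were tested, all but the 1 random control row. Transcript identifiers were matched without versions to a RefSeq table of GRCr8, used for names and gene order: 9747 probes had 1 symbol, 0 several and 16672 none. The probe with the highest mean stood for a gene.

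Samples were grouped by title. Tea minus control was fitted with limma 3.58.1 in R 4.3.3 (lmFit, eBayes, two-sided, Benjamini-Hochberg over 26419 probes). Simulated data used to test the procedure had the same spread for every probe and no outlying array, unlike these data. Nothing in the labels says that each replicate is a separate animal. The p-values therefore reflect the spread among samples, part of which may be technical. The number of arrays limits the precision. The 10 genes and all lists were chosen with earlier results of these data known. Besides these genes, the text names the 2 genes with the smallest p of each matrix list, the brightest and the smallest-p gene of marker lists (some are not reported here), genes past the threshold and the 3 genes most like Dcn. Alternatives were quantile normalization, median centring, array weights, robust and trended eBayes, only probes above the 25th percentile of mean level, the replicate number as a block, omission of each array and the mean of a gene's probes.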

Additional observations from a re-analysis of the deposited data

How the results depend on the processing

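None of the 9 genes passed the adjustment over all probes under any alternative run. For Dcn the smallest limma adjusted p was 0.0907, with array weights, and the largest 0.9999 over 13 alternatives. Dcn, Lum, Bgn, Sparc, Timp1 and Mmp2 kept their direction in every alternative that gave a value. The number of probes passing was 27 with array weights, 0 with the replicate block and 0 to 6 with 1 array left out: 0 without tea replicate 1, 2 or 3 or control replicate 3, and 6 without control replicate 1. The labels do not say whether replicate numbers pair the samples. Same-numbered arrays had correlations of -0.22, 0.01 and -0.25 between their deviations from the group means. With 3 arrays in each mean and control replicate 1 apart from the rest, these values cannot decide whether samples were paired. The cause of the changes below was not tested, except that the filter on dim probes left out Lum and Spp1 and so changes which genes enter a median. With 1 array left out, log2 differences ranged from -0.029 to 0.57 for Col3a1, from -0.28 to 0.14 for Spp1, from -0.33 to 0.14 for Tgfb1, from -0.18 to 0.48 for Col5a3, from -0.059 to 0.87 for Col4a4, from -0.39 to 0.093 for Agrn and from -0.15 to 0.13 for Krt8. List medians then ranged from -0.40 to -0.074 for the 3 small proteoglycans, from -0.13 to 0.26 for basement membrane glycoproteins, from -0.14 to -0.012 for collagen processing enzymes, from -0.45 to -0.31 for matricellular proteins, from -0.34 to -0.088 for proteases and inhibitors and from -0.17 to 0.010 for transforming growth factor beta signalling. Among marker lists they ranged from -0.18 to 0.080 for stellate cells, from -0.14 to 0.050 for hepatocytes, from -0.20 to 0.11 for Kupffer cells and macrophages, from -0.20 to 0.18 for endothelium, from -0.11 to 0.060 for cholangiocytes, from -0.17 to 0.053 for adipocytes and from 0.030 to 0.25 for lymphocytes. With array weights Spp1 was at 0.038, Fmod at -0.011 and Krt8 at -0.022, and medians were -0.058 for proteases and inhibitors, -0.12 for hepatocyte, 0.038 for cholangiocyte, 0.13 for adipocyte and -0.043 for lymphocyte markers. Quantile normalization put Krt8 at -0.0079. With the filter on dim probes medians were 0.24 for the small proteoglycans, -0.067 for collagen processing enzymes, -0.61 for matricellular proteins and 0.083 for cholangiocyte markers. The distance to the random control row limits Lum, Spp1, Chst12, Or5af1c, Msmb, Prf1, Cd8b and Nkg7 on all 6 arrays. It limits Plod2, Cygb, Col4a4 and Col5a3 on 5 and Bgn, Timp1, Adamts5, Mfap4, Gpm6a, Chad, Lama3 and Chpf on 4.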

Other observations

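Transcripts of some plasma proteins made by hepatocytes are given as values that were chosen after being seen, and none passed over all probes in limma. Fn1, which encodes fibronectin, was at 13.30, 13.54 and 13.17 in the tea arrays, against 13.89, 13.70 and 14.30 in the controls, a log2 difference of -0.63 ± 0.30. Vtn, the vitronectin gene, was at 11.17, 11.10 and 11.32 in the tea arrays, against 11.58, 11.62 and 12.22 in the controls, a difference of -0.61 ± 0.31. Plg, the plasminogen gene, differed by -0.43 ± 0.29, and Hpx, which encodes the haem-binding plasma protein hemopexin, by -0.98 ± 0.32 (SE; limma, adjusted p = 0.949 for each of the 4). Of other transcripts of this kind, Ttr differed by -0.37, Apoa1 by -0.25 and Serpina1 by -0.24 in log2 units. Others were near 0, at 0.04 for Alb, 0.0030 for Fga, -0.09 for Fgb, -0.01 for Tf, 0.01 for Ahsg and -0.02 for Apob. Without control replicate 1, 11 of 12 measured hepatocyte markers were lower with tea, against 7 of 12 with all arrays. Of all probes, 49.3% were lower without that array and 50.3% with all arrays. The 11 included values near 0, such as -0.01 for Tf and -0.04 for Alb, and no direction is read from them. Gzmb, the granzyme B gene among the lymphocyte markers, was at 8.95, 9.75 and 10.21 in the tea arrays, against 8.26, 8.43 and 8.35 in the controls, and differed by 1.29 ± 0.36 (SE; limma, adjusted p = 0.949). Of the other genes of cytotoxic lymphocytes on that list, Prf1, the perforin gene, differed by -0.51 ± 0.29 (SE; limma, adjusted p = 0.949), Cd8a by 0.09, Cd8b by 0.09 and Nkg7 by 0.13. All 6 values of Prf1, Cd8b and Nkg7 were within 2-fold of the random control row.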
